A study of Mus musculus with 2 samples.

Results

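Glutathione, a small thiol peptide, and the thioredoxin system keep cells supplied with reducing power. The transcription factor NRF2 (gene Nfe2l2) raises many of the genes of both systems when it escapes its inhibitor KEAP1, and BACH1 holds several of them down. A set of 10 genes of these systems, of the 17775 in the deposited matrix, was followed across cell types and across both treatment groups. They were taken by symbol, and all 10 were in the matrix. The list was drawn up because Gclm had been seen to be lower in DFMO in several separate sets of cells, so the differences between DFMO and water given below for Gclm are a description and were not tested.

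The cells came from tumours of MC38, a mouse colon carcinoma line, grown from 200000 cells implanted in C57BL/6 mice. One group received DFMO (difluoromethylornithine), an inhibitor of ornithine decarboxylase and so of polyamine synthesis, and the control group received water, both by gavage for 14 days from day 7. The sample labels give 2 gavages a day, and the series text gives daily gavage. Each group was 1 single-cell 5' RNA library of cells pooled from 4 mice after digestion and a density step meant to obtain immune cells, and age and sex are not given in the labels.

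After filtering, 4421 DFMO cells with a median of 2208 UMIs (unique molecular identifiers, counts of single RNA molecules) and 6150 water cells with a median of 6334.5 UMIs were kept. They formed 23 clusters, which were grouped into classes by marker genes. The labelled cell type did not hold for all cells: 591 DFMO cells (13.4%) and 2105 water cells (34.2%) lay in clusters almost without UMIs of the pan-leukocyte gene Ptprc, and 97 and 805 cells were fibroblast-like. The Ptprc-low cells are called by that rule, since tumour epithelium markers summed to only 0.390 CPM (counts per 1000000 UMIs) in DFMO and 21.3 CPM in water, while the 7 fibroblast markers summed to 3466 and 3151 CPM in these cells. B cell-like and CD4 T cell-like cells were nearly all from the DFMO library (1492 against 57 and 634 against 41 cells), so values over all cells also carry this difference in cell mix. The libraries shared 37 cell barcodes.

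A level is the sum of a gene's UMIs over the cells of a class, scaled to CPM, with an exact Poisson 95% interval. A difference is the log2 ratio of the DFMO level over the water level, with an exact conditional binomial 95% interval. Both intervals cover counting error only. Each group being a single library, treatment could not be tested, and a gene is called past the fold when the libraries differed at least 1.5 times in either direction and it had at least 30 UMIs. UMI counts from 5' ends do not grow with transcript length, but genes differ in capture, so levels are compared across classes for 1 gene and not between genes.

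Promoters of 3 members that hold matches to response elements of NRF2 or ATF4 are shown first, because the members are known as genes that respond to these factors. RefSeq promoter windows (GRCm38.p6, 250 bases before to 50 after the start) were held for 7 of the 10 genes, in 9 windows, 3 of them for Txnrd1. The motifs searched were 3, on both strands: TGACNNNGC, the core of the antioxidant response element bound by NRF2 with small MAF proteins; TGAGTCA, an AP-1 site that can lie inside such an element; and TGATGCAA, the amino acid response element bound by ATF4 with C/EBP proteins. Capitals mark the matches. The Gclm window lies at chr3:122245307-122245606 on the plus strand, the Srxn1 window at chr2:152105274-152105573 on the plus strand, and the Slc7a11 window at chr3:50443564-50443863 on the minus strand.
Gclm: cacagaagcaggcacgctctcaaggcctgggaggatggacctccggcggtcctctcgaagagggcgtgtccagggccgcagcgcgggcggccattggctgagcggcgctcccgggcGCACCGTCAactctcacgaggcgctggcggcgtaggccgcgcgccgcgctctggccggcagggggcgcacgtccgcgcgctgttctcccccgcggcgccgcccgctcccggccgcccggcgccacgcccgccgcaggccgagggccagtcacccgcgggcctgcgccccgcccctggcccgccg
Srxn1: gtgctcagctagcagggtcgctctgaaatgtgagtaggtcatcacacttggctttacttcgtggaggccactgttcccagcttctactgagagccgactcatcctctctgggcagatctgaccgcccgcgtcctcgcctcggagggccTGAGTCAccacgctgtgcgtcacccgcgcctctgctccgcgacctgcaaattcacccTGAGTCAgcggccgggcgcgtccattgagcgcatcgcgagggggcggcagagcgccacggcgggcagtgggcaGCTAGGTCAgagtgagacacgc
Slc7a11: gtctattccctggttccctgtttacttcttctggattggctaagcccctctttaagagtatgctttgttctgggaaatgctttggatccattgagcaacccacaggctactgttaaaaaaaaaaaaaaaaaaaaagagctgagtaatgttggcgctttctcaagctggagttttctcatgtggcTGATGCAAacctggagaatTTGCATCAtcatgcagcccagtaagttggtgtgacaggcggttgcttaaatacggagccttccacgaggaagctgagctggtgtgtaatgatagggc
TGACNNNGC was in 12.4% of all 32851 windows of this length, TGAGTCA in 5.20% and TGATGCAA in 0.895%. The Gclm window held TGACNNNGC at 1 place, 134 to 126 bases before the start. The Srxn1 window held TGAGTCA at 2 places and TGACNNNGC at 1, and the Slc7a11 window held TGATGCAA at 2 places facing each other. One of the Txnrd1 windows and the G6pdx window held TGACNNNGC once each, and the Gss and Nqo1 windows held no match to these letters.

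Slc7a11 makes the transporting chain of system xc-, the cystine importer that supplies cysteine, the limiting amino acid of glutathione synthesis. It was read in myeloid, fibroblast-like and Ptprc-low cells and almost not in lymphocytes, where B cell-like and CD4 T cell-like cells had 1 UMI each in DFMO and 0 in water. The level in monocyte and macrophage-like cells was 40.3 CPM (interval 27.0 to 57.9) for DFMO and 27.2 CPM (22.2 to 33.1) for water. Migratory dendritic cell-like cells had 42.0 CPM (20.2 to 77.3) and 21.4 CPM (9.78 to 40.6), and the intervals of these 2 classes overlapped in both libraries. Fibroblast-like cells followed with 16.6 and 16.9 CPM and Ptprc-low cells with 13.3 and 11.7 CPM. In CD8 T cell-like, NK cell-like, regulatory T cell-like and Tcrg-led cells (2 clusters led by T cell receptor gamma genes) it had 0 UMIs in both libraries. For CD8 T cell-like cells the level of 3 UMIs, the limit taken for a count of 0, was 1.04 CPM for DFMO and 1.23 CPM for water, and the exact Poisson intervals reached 1.28 and 1.51 CPM. Its partner chain Slc3a2, which also serves other amino acid transporters, was read in every one of these classes, for instance at 143 and 151 CPM in CD8 T cell-like cells.

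Gclc and Gclm make the catalytic and the modifier subunit of glutamate-cysteine ligase, the rate-limiting enzyme of glutathione synthesis, and their levels did not follow each other over cell types. Gclc was highest in migratory dendritic cell-like cells (35 and 76 cells), where DFMO had 366 CPM (293 to 451) and water 126 CPM (94.4 to 165). Among classes of at least 50 water cells, this water interval lay above all others but that of the B cell-like cells, which had 3 UMIs. The 41 CD4 T cell-like water cells, left out of that order, had 37.9 CPM from 2 UMIs. The next levels in DFMO were 79.8 CPM in Tcrg-led and 49.0 CPM in B cell-like cells, whose intervals overlapped, and the lowest was 11.3 CPM in fibroblast-like cells. Gclm spanned a narrower range in water, from 105 CPM in migratory dendritic cell-like to 265 CPM in B cell-like cells, and in DFMO from 56.7 CPM in B cell-like to 125 CPM in monocyte and macrophage-like cells among classes of at least 50 cells. Neighbours in both Gclm orders overlapped in their intervals, except monocyte and macrophage-like and migratory dendritic cell-like cells in water. Over the 20 clusters of at least 50 cells, libraries summed, Pearson's r between the log2 levels of Gclc and Gclm was -0.55. Such an r is a description over clusters that share libraries and depth. Gclm counts are also uncertain, as described below with Ppia, and the bearing of that on this comparison was not tested.

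Gss makes glutathione synthetase, the enzyme of the last step. Its highest levels were those of fibroblast-like cells, 39.7 CPM for DFMO and 34.0 CPM for water, and of Ptprc-low cells, 35.3 and 32.9 CPM, with overlapping intervals. All the other classes were at 21.6 CPM or less where at least 50 cells were held.

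Gsr makes glutathione reductase, which returns oxidised glutathione to its reduced form with NADPH. Monocyte and macrophage-like cells led, with 512 CPM (461 to 567) for DFMO and 373 CPM (354 to 394) for water, and the next class, Ptprc-low cells, was at 79.5 and 88.1 CPM. Within the monocytes and macrophages the level lay in 1 cluster: cluster 11, led by Hp and Ace, had 929 and 791 CPM, while cluster 10, led by complement C1q genes, Mmp12 and Arg1, had 81.8 and 57.3 CPM. G6pdx makes glucose-6-phosphate dehydrogenase, the entry enzyme of the pentose phosphate pathway and a source of NADPH. It had the same order, with 148 and 136 CPM in cluster 11 against 53.6 and 45.9 CPM in cluster 10. Of the 31-mers (runs of 31 bases) of its transcripts, 12.6% also occur in its retrocopy G6pd2.

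Txnrd1 makes cytosolic thioredoxin reductase and differed modestly over cell types, from 19.4 CPM in B cell-like to 59.2 CPM in Ptprc-low cells in DFMO and from 17.2 CPM in conventional dendritic cell-like to 58.9 CPM in Ptprc-low cells in water. Srxn1 makes sulfiredoxin, which repairs overoxidised peroxiredoxins. Ptprc-low cells had its highest level, 71.8 CPM for DFMO and 71.7 CPM for water, followed by fibroblast-like cells at 50.3 and 52.0 CPM. Among lymphocytes it stayed between 0.352 and 16.4 CPM in DFMO. In water, regulatory T cell-like cells had 35.1 CPM (22.7 to 51.9), close to the 35.9 CPM of monocyte and macrophage-like cells.

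Nqo1 makes an NADPH quinone reductase and is a standard readout of NRF2. It was read at low levels, 9.93 and 10.8 CPM in fibroblast-like cells and 6.53 and 6.56 CPM in Ptprc-low cells, and it had 1 UMI in DFMO and 0 in water over all CD8 T cell-like cells. Hmox1 makes haem oxygenase 1, which degrades haem and is held down by BACH1. Its order was monocyte and macrophage-like cells (1557 and 874 CPM), Ptprc-low cells (136 and 134 CPM) and fibroblast-like cells (39.7 and 37.5 CPM), with no overlap between these neighbours in either library. Cluster 10 held most of the level, with 3090 CPM for DFMO and 1420 CPM for water, and among Ptprc-low cells the hypoxia-led cluster 3 (Car9, Adm, Ndrg1) held it, at 318 and 293 CPM.

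**Figure D1:**
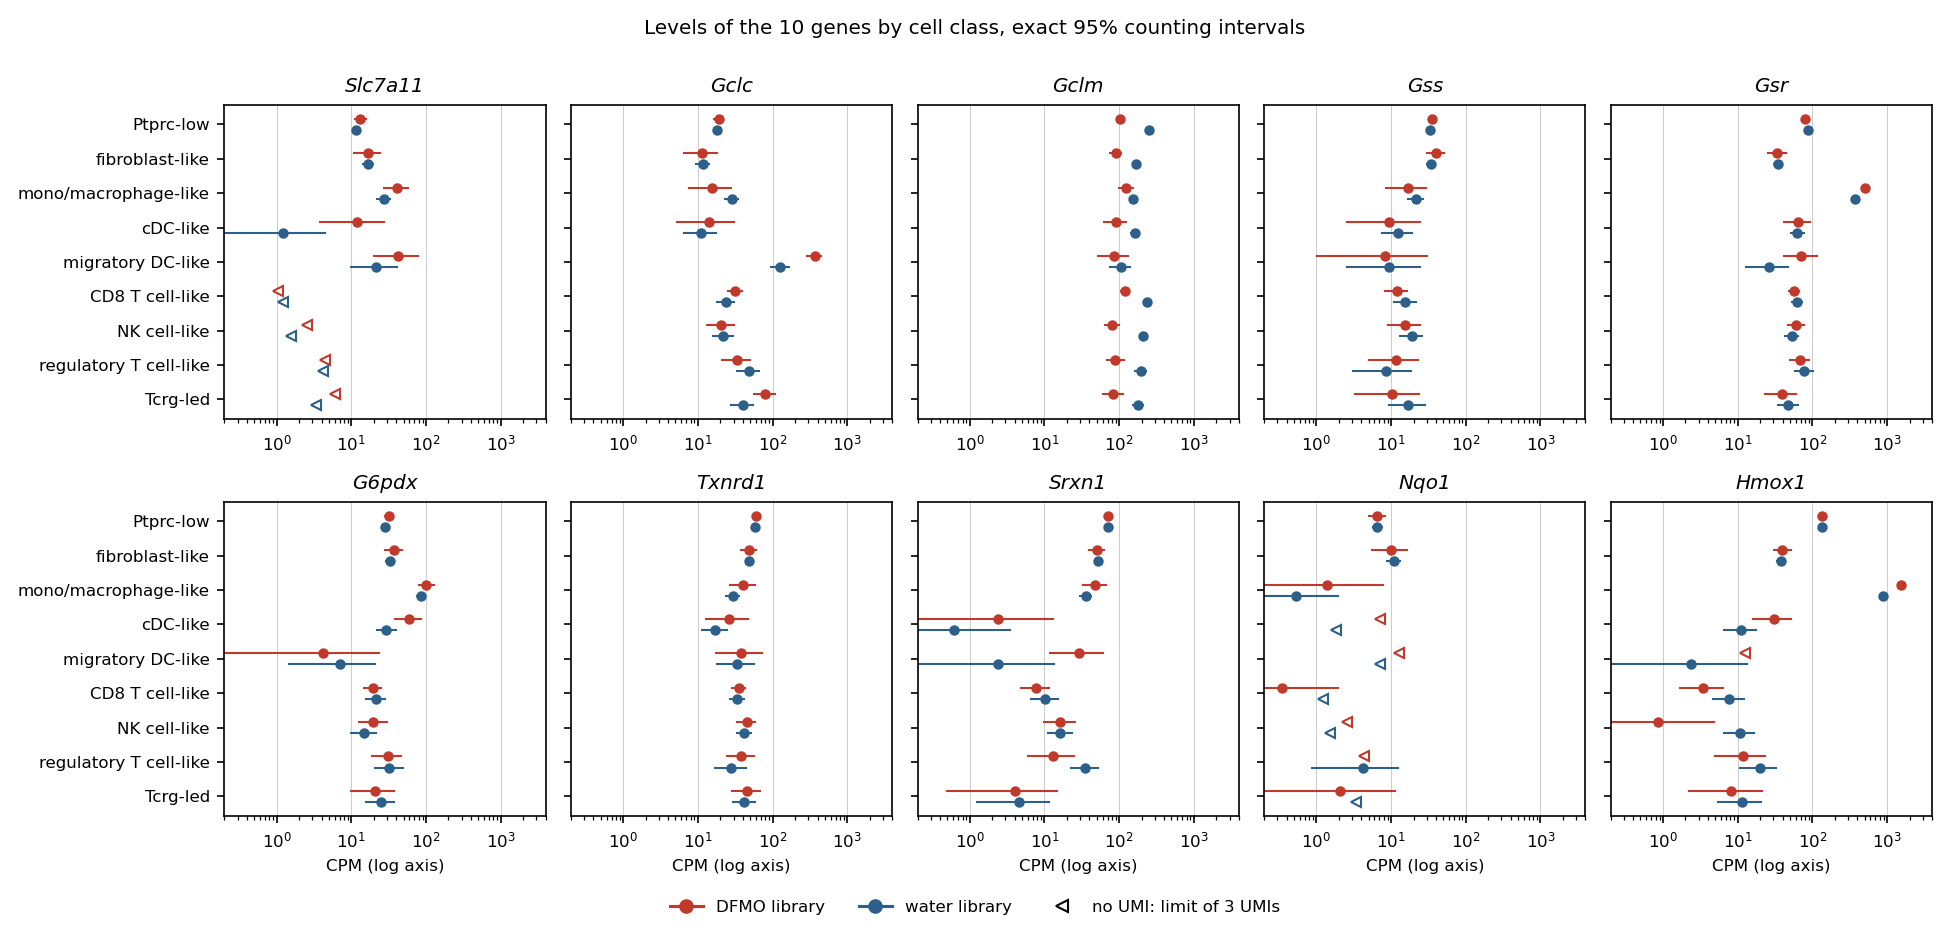
Level of each of the 10 genes in CPM (log axis) in 9 cell classes, DFMO library in red and water library in blue, with exact 95% counting intervals cut off at the left edge. Open triangles mark the level of 3 UMIs where no UMI was read. Gclm is the gene whose red points lie left of the blue ones in nearly every class, and Gsr and Hmox1 peak in monocyte and macrophage-like cells.

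The levels of Gclm in DFMO lay below those in water in each of the large classes. Ptprc-low cells had 101 CPM (95.2 to 108) against 248 CPM (243 to 254), the DFMO value given before the water value here and below, a log2 ratio of -1.29 (-1.39 to -1.20). Fibroblast-like cells had 90.7 against 166 CPM, a log2 ratio of -0.87 (-1.13 to -0.62). CD8 T cell-like cells had 119 against 239 CPM, a log2 ratio of -1.001 (-1.20 to -0.81), and NK cell-like cells had 80.1 against 211 CPM, a log2 ratio of -1.40 (-1.74 to -1.07). Regulatory T cell-like cells had 89.2 against 194 CPM, a log2 ratio of -1.12 (-1.58 to -0.68). Of these 6 classes only monocyte and macrophage-like cells had an interval that held 0, at 125 against 154 CPM and -0.30 (-0.64 to 0.02). With every cell thinned to 1000 UMIs the log2 ratio of this class was -1.07, and that of NK cell-like cells -0.79. Over all kept cells the values were 95.8 and 216 CPM, with a log2 ratio of -1.18 (-1.24 to -1.11).

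By cluster, Gclm was lower in DFMO in 18 of the 19 clusters with at least 20 cells in each library, and the interval lay below 0 in 15 of them. The log2 ratio ran from -2.22 in the B cell-like cluster 0, which had 57 water cells and 23 water UMIs of Gclm, to 0.07 (-0.33 to 0.44) in cluster 10. Few cells held the DFMO level there: 5 cells held 71% of the 69 Gclm UMIs of cluster 10 in DFMO and 1 cell held 33. Of the 1854 genes measured in all 19 clusters, 36 (1.94%) were lower in at least 18, and the median gene was lower in 10. Gclm was chosen for being lower in several sets of these same cells, so its place in such counts is not a test. Over the 6 classes without shared cells, from Ptprc-low to regulatory T cell-like, 5091 genes were measured in all 6. Of these, 3 (Gclm, Eno1b and Gm10282) were lower past the fold in 5 classes and none in 6. In the other direction, 6 genes were higher past the fold in 5 classes and 4 in all 6.

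Gclm counts are uncertain, because 1 of its annotated transcripts carries a copy of another gene. Gclm lies at chr3:122245557-122270732 on the plus strand (GRCm38), where the antisense gene Gm17494 overlaps it. Ppia makes cyclophilin A, a peptidyl-prolyl isomerase that is abundant in nearly all cells. A processed pseudogene of Ppia, Gm6061 (chr3:122256728-122257219, plus strand, GENCODE M21 on GRCm38), lies inside Gclm and overlaps exon 3 of the non-coding transcript Gclm-202 (chr3:122256676-122256971). Of the 31-mers of Gclm, 5.61% occur in transcripts of other genes, 225 of them in Ppia, and all 225 lie in bases 508 to 762 of Gclm-202, its 3' end. The 6 other Gclm transcripts share none with Ppia. Over 176 bases the last exon of Gclm-202 and Ppia-201 are identical, and 60 of these bases are shown to let the copy be seen.
Gclm-202, bases 587 to 646: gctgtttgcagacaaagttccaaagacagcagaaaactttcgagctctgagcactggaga
Ppia-201, bases 115 to 174: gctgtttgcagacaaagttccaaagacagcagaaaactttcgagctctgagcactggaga
Of the other 2 genes that were lower in 5 classes, Eno1b is a retrogene, a copy of the glycolytic enzyme gene Eno1. No parent gene is given here for Gm10282.

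The number of Gclm UMIs per Ppia UMI differed between the libraries. Over the 19 clusters, Pearson's r of the log2 levels of Gclm and Ppia was 0.79 in water and 0.45 in DFMO, as a description over clusters of 1 library. Ppia itself differed little between the libraries, with a log2 ratio of -0.21 (-0.22 to -0.21) over all kept cells and of -0.26 for the Ptprc-low ones. Per 1000 Ppia UMIs, Gclm had 14.2 UMIs in DFMO and 27.7 in water over all kept cells, 13.4 and 27.4 in Ptprc-low, 14.7 and 26.3 in fibroblast-like, 15.9 and 28.9 in CD8 T cell-like, 11.9 and 25.9 in NK cell-like and 14.1 and 31.03 in regulatory T cell-like cells. Within a library these classes were thus close to each other. Monocyte and macrophage-like cells had 36.6 and 39.3 from all their UMIs, the class whose Gclm ratio moved most with thinning. By cluster, cluster 10 had 53.2 in DFMO and 43.9 in water, and cluster 0 had 11.8 in DFMO and 55.4 in water, the latter from its 57 water cells.

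Eno1b also had a higher rate in water than in DFMO. Per 1000 Eno1 UMIs, Eno1b had 8.91 UMIs in DFMO and 18.0 in water over all kept cells, and the Ptprc-low values were 8.83 and 18.0. The level of Eno1 differed in the opposite direction in Ptprc-low cells, with a log2 ratio of 0.17 (0.16 to 0.19), while that of Eno1b was -0.85 (-1.02 to -0.69). More widely, 385 genes of the matrix share at least 100 31-mers with a gene that has at least 20 times their UMIs. Gclm and Eno1b, whose lower levels were already known, were not left out of this count. In Ptprc-low cells 90 of them were measured, of which 18 were lower past the fold and 20 (22.2%) higher, where 2.95% and 4.78% of all measured genes were. The other classes follow with the share of all genes in brackets. In fibroblast-like cells 11 of 33 were lower (7.99%) and 1 higher (6.45%), and in CD8 T cell-like cells 9 of 31 (7.38%) and 5 (13.7%). NK cell-like cells had 5 of 15 (5.72%) and 3 (7.51%), and regulatory T cell-like cells 3 of 10 (7.86%) and 2 (15.1%). The monocyte and macrophage class had 3 of 16 (9.66%) and 4 (9.83%). Over all kept cells only 147 of the 385 reached 30 UMIs, where 14122 of 17775 genes did. The part of counting error at low counts in these shares was not tested. Genes with a processed pseudogene within an exon, Gclm itself among them, were counted too. Of 30 measured in Ptprc-low cells 2 (6.67%) were lower and 2 (6.67%) higher. Over all kept cells 4 of 33 (12.1%) were lower and 6 (18.2%) higher, where 10.1% and 17.8% of all genes were. The other classes, beside the shares of all genes given above, had small counts. These were 1 of 27 lower and 4 higher in fibroblast-like and 4 of 23 and 1 in monocyte and macrophage-like cells. They were 2 of 26 and 2 in CD8 T cell-like, 2 of 19 and 1 in NK cell-like and 1 of 16 and 2 in regulatory T cell-like cells. The deposited counts do not say which UMIs of Gclm came from reads over the copied exon, so the part of Ppia in the Gclm difference was not tested.

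**Figure D2:**
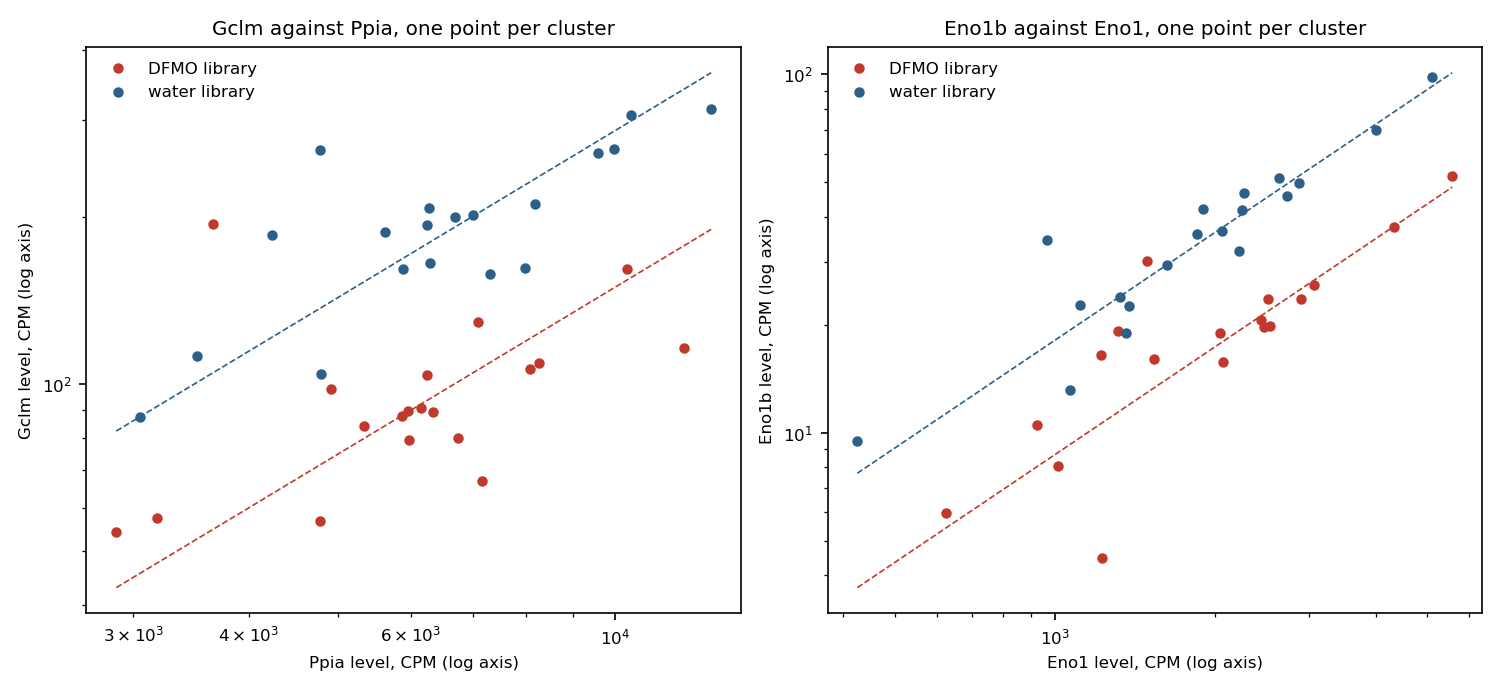
Levels in CPM of Gclm against Ppia (left) and of Eno1b against Eno1 (right), both axes logarithmic, 1 point per cluster and library for clusters of at least 20 cells in each library (a cluster with no Eno1b UMI is left out). Dashed lines are the median rate per 1000 UMIs of the abundant gene, 14.97 in DFMO and 28.7 in water for Gclm and 8.69 and 18.1 for Eno1b, and most points of a library lie along its line.

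Depth was highest among Ptprc-low cells (medians of 18392 and 16280 UMIs per cell). Over that class as a whole, the other 9 members were nearly level between the libraries. Of the 10 members, all measured, 1 (Gclm) was lower past the fold and 0 higher, where 2.95% of 11811 genes were lower and 4.78% higher. The median log2 ratio of the 10 was 0.01, beside 0.05 for all genes. Srxn1 had 71.8 against 71.7 CPM, a log2 ratio of 0.00 (-0.12 to 0.12), and Txnrd1 59.2 against 58.9 CPM, a log2 ratio of 0.01 (-0.13 to 0.14). Gclc, the partner subunit of Gclm, had 18.9 against 18.2 CPM, a log2 ratio of 0.06 (-0.18 to 0.29). These 3 intervals lie within a fold of 1.5 in either direction. Gsr was the only one of the 9 whose interval did not hold 0, at 79.5 against 88.1 CPM and -0.15 (-0.26 to -0.04). Nqo1 had 6.53 against 6.56 CPM, with the wider interval of -0.42 to 0.39 that 67 and 221 UMIs allow.

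Hmox1 was level over the Ptprc-low cells as a whole, with a log2 ratio of 0.02 (-0.07 to 0.10), but not by cluster. In the dividing cluster 1 it had 33.1 CPM in DFMO and 71.7 CPM in water, a log2 ratio of -1.12 (-1.40 to -0.84). In cluster 4, led by Lcn2 and Hmga2, it had 46.7 against 74.8 CPM, and in the hypoxia-led cluster 3 it had 318 against 293 CPM. In cluster 1, 37.9% of the water UMIs of Hmox1 lay in 5 of 728 cells. In DFMO, 5 cells held 53.8% of these UMIs in cluster 4 and 35.7% in cluster 3. Without the 10% of cells with most Hmox1 per UMI in each library, the cluster 1 levels were 15.8 and 20.3 CPM. Cluster 4 then had 16.9 against 23.7 CPM. Cluster 3 then had 126 against 139 CPM, the opposite direction to its summed level. Slc7a11 also differed by cluster, beside a log2 ratio of 0.18 (-0.11 to 0.46) over the class. It had 0.51 (0.05 to 0.95) in cluster 1, 0.53 (-0.00 to 1.04) in cluster 4 and -0.52 (-1.13 to 0.06) in cluster 3.

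In fibroblast-like cells 1 of the 10 measured members, Gclm, was lower past the fold and 0 were higher, where 7.99% of genes were lower and 6.45% higher. The other 9 had log2 ratios between -0.12 (Nqo1) and 0.22 (Gss), and every one of these intervals held 0. Hmox1 had 39.7 against 37.5 CPM and Srxn1 50.3 against 52.0 CPM.

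**Figure D3:**
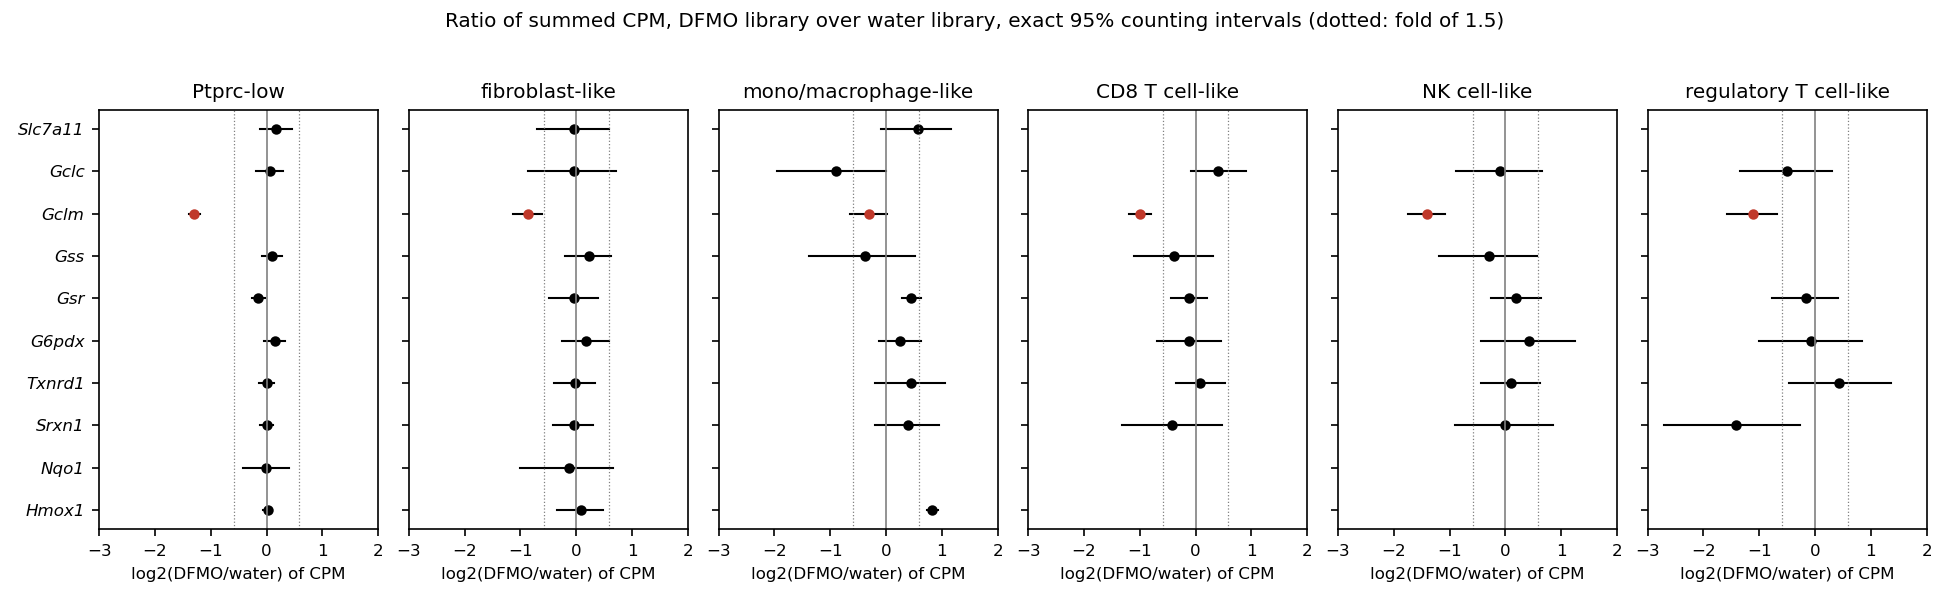
Log2 ratio of the summed level in DFMO over water for the members with at least 30 UMIs in each of 6 classes, with exact 95% counting intervals, dotted lines at a fold of 1.5 and Gclm in red. Gclm lies left of the dotted line in 5 of the 6 classes, and the other members past a dotted line are Hmox1 at 0.83 and Gclc at -0.90 in monocyte and macrophage-like cells and Srxn1 at -1.42 in regulatory T cell-like cells.

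Monocyte and macrophage-like cells (125 DFMO and 715 water cells) had 9 measured members. One, Gclc, was lower past the fold and 1, Hmox1, higher, where 9.66% of genes were lower and 9.83% higher. Hmox1 had 1557 CPM (1467 to 1651) against 874 CPM (844 to 905), a log2 ratio of 0.83 (0.73 to 0.93). Gsr had 512 against 373 CPM, a log2 ratio of 0.45 (0.28 to 0.62). Gclc had 15.3 against 28.6 CPM, a log2 ratio of -0.90 (-1.95 to -0.00) from only 11 DFMO UMIs. The median over the 9 was 0.40, beside 0.03 for all genes.

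The Hmox1 difference did not have 1 direction inside this class. The C1q macrophage-like cluster 10 had 3090 against 1420 CPM, a log2 ratio of 1.12 (1.02 to 1.22). The Hp monocyte-like cluster 11 had 68.5 against 153 CPM, a log2 ratio of -1.16 (-1.82 to -0.57). With both clusters given equal weight the log2 ratio was -0.02. In cluster 10, 5 of 61 DFMO cells held 67.5% of the Hmox1 UMIs, against 28.5% in 5 of 391 water cells, and the median cell had 158 CPM in DFMO and 208 CPM in water. Without the 10% of cells with most Hmox1 per UMI the levels were 985 and 521 CPM. The mean level and the median cell thus pointed in opposite directions.

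Further members were also higher in DFMO in cluster 10. Of its 8 measured members 4 were higher past the fold, where 11.3% of genes were, and 1 lower, where 16.3% were. Slc7a11 had 59.3 against 32.7 CPM, a log2 ratio of 0.86 (0.08 to 1.58), and Srxn1 93.1 against 59.2 CPM, a log2 ratio of 0.65 (0.05 to 1.22). Txnrd1 had 50.8 against 32.7 CPM from 18 and 69 UMIs, with an interval that held 0. The lower gene was Gclc, from 6 DFMO UMIs. Among list genes, the peroxiredoxin gene Prdx6 had 731 against 461 CPM, a log2 ratio of 0.67 (0.46 to 0.86), and the mitochondrial superoxide dismutase gene Sod2 243 against 154 CPM. Atf3 had 928 against 603 CPM. On the other side the transferase gene Gstp1 had 76.2 against 191 CPM, a log2 ratio of -1.33 (-1.95 to -0.77), and Akr1b3, an aldose reductase, 90.3 against 139 CPM. Alas1 and Blvra, which make the first enzyme of haem synthesis and a biliverdin reductase, were lower too, at 36.7 against 66.3 CPM and 53.6 against 87.1 CPM. Levels of other cell types also moved here: the 7 fibroblast markers summed to 2.82 CPM in DFMO, with 6 of 7 at 0, and 233 CPM in water, with 3 of 7 at 0. Their part in these ratios was not tested.

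In cluster 11, 0 of 8 measured members were higher past the fold (9.94% of genes) and 4 were lower (9.8% of genes): Gclm, Gclc, Gss and Hmox1. Of these, Gclc and Gss had only 5 and 8 DFMO UMIs, and both intervals held 0. Gsr, at its highest level of any cluster there, had a log2 ratio of 0.23 (0.05 to 0.41). Cluster 7, left unnamed and led by S100a9, S100a8 and Il1b, had 2 of 8 measured members lower past the fold (12.2% of genes) and 2 higher (10.8% of genes). Of the lower members, Srxn1 had only 2 DFMO UMIs and an interval that held 0. Gsr had 382 against 219 CPM there, a log2 ratio of 0.80 (0.52 to 1.08). Hmox1 had 428 against 94.9 CPM, but 82.9% of its DFMO UMIs lay in 5 of 63 cells and 113 UMIs in 1 cell. The median cell had no Hmox1 UMI in either library.

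**Figure D4:**
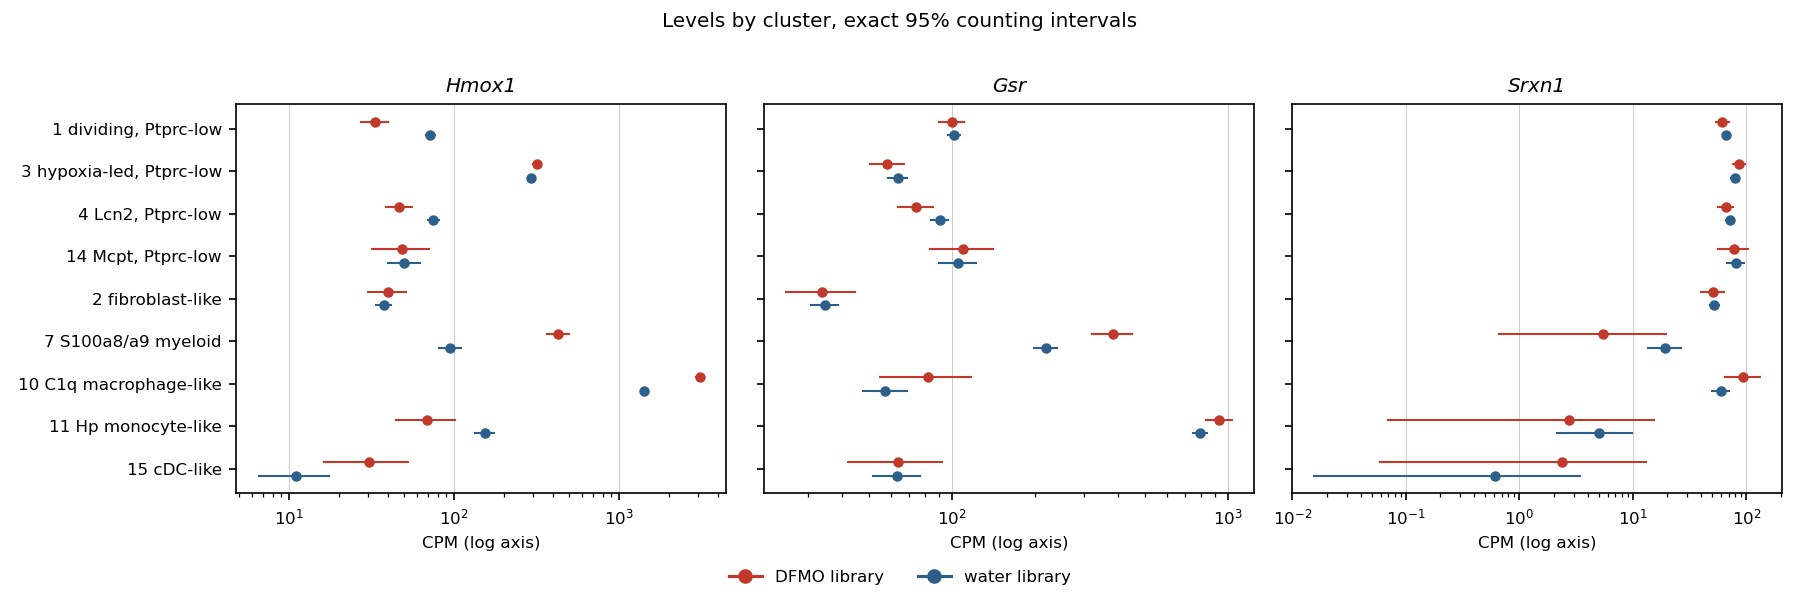
Levels in CPM (log axis) of Hmox1, Gsr and Srxn1 in 9 clusters of Ptprc-low, fibroblast-like and myeloid cells, DFMO in red and water in blue, with exact 95% counting intervals. Hmox1 is highest in cluster 10 (3090 and 1420 CPM) and Gsr in cluster 11 (929 and 791 CPM), and Srxn1 is at similar levels in both libraries in Ptprc-low and fibroblast-like clusters.

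Lymphocytes expressed fewer members, and apart from Gclm few of them differed. In CD8 T cell-like cells 1 of 7 measured members, Gclm, was lower past the fold (7.38% of genes) and 0 higher (13.7% of genes). Txnrd1 had 35.5 against 33.6 CPM and Gsr 57.5 against 62.6 CPM, and the intervals of all 6 others held 0. Cluster 9, led by Dapl1, held 451 of the 739 DFMO cells and 44 of the 549 water cells of this class. Without it Gclm had 114 against 242 CPM, a log2 ratio of -1.09 (-1.32 to -0.86), and was again the 1 of 7 measured members past the fold, where 4.16% of genes were lower and 6.73% higher. In NK cell-like cells 1 of 7 measured members, again Gclm, was lower past the fold (5.72% of genes) and 0 higher (7.51% of genes). Hmox1 had 1 UMI in DFMO and 21 in water there, too few to be measured. In the same cells the fibroblast markers summed to 4.31 CPM in DFMO and 48.1 CPM in water. Whether these values are related was not tested.

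In regulatory T cell-like cells 2 of 6 measured members were lower past the fold (7.86% of genes) and 0 higher (15.1% of genes). These were Gclm and Srxn1, the latter with 9 and 25 UMIs, 13.2 against 35.1 CPM and a log2 ratio of -1.42 (-2.70 to -0.27). Gclc differed in 2 further sets. In the Tcrg-led clusters it had 79.8 against 39.7 CPM, a log2 ratio of 1.01 (0.31 to 1.71), where 10.7% of genes were higher past the fold and 6.1% lower, and 1 of 5 measured members was past it in each direction. In migratory dendritic cell-like cells, with 35 DFMO and 76 water cells, it had 366 against 126 CPM, a log2 ratio of 1.54 (1.03 to 2.06).

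Over all kept cells, 2 of the 10 members were lower past the fold (10.1% of genes), Gclm and Nqo1, and 1 higher (17.8% of genes), Gclc at 29.6 against 19.6 CPM. Of the 10, 8 had intervals below 0. This set mixes classes whose shares differ between the libraries: Nqo1 had 3.81 against 5.81 CPM over all cells, while within Ptprc-low and fibroblast-like cells its intervals held 0.

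The regulators of these genes were read in most classes. Nfe2l2, which makes NRF2, had 80.8 against 61.4 CPM in Ptprc-low cells and 204 against 177 CPM in monocyte and macrophage-like cells. In CD8 T cell-like cells it had 39.7 against 18.0 CPM, a log2 ratio of 1.14 (0.63 to 1.68), but without cluster 9 it had 23.1 against 16.1 CPM, with an interval of -0.15 to 1.19. Keap1, the gene of the inhibitor, had 78.2 against 78.9 CPM in Ptprc-low and 86.0 against 92.9 CPM in CD8 T cell-like cells. Bach1 had 36.8 against 26.3 CPM in Ptprc-low cells and 61.2 against 51.2 CPM in monocyte and macrophage-like cells. Bach2, a repressor of B and T cells, had 171 and 173 CPM in B cell-like cells, and 27.5 against 11.5 CPM in the CD8 class (15.9 against 9.72 CPM leaving out cluster 9). Atf4, the stress factor that drives Slc7a11, had 430 against 428 CPM in Ptprc-low cells.

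A further 8 lists of related genes, drawn up with earlier results of these data known, were counted in the same way. In Ptprc-low cells the list of glutathione synthesis and breakdown had 8 of 11 genes measured, with a median log2 ratio of -0.16 beside 0.05 for all genes, and only Gclm was past the fold. Of the 26 genes of glutathione use (peroxidases, transferases, glutaredoxins and glyoxalases) 19 were measured, 2 were lower and 1 higher past the fold, and the median was -0.15. The shares of all genes past the fold, for this and the next lists in Ptprc-low cells, were 2.95% lower and 4.78% higher. The lower genes were Mgst1, a microsomal transferase, at 3.51 against 8.25 CPM, and Gstm2, a cytosolic transferase, with 12 and 101 UMIs. The higher one was Mgst2, with 14 and 23 UMIs. Of 22 thioredoxin, peroxiredoxin and superoxide genes, all measured, 0 were past the fold. The 9 genes of NADPH supply and the 9 of cystine import and the ATF4 axis likewise had 0 past it, with medians of 0.03 and 0.04. Of 20 further NRF2 targets 19 were measured and 1 was lower, Cbr3, a carbonyl reductase, at 15.8 against 24.5 CPM and a log2 ratio of -0.63 (-0.88 to -0.39). The 11 measured NRF2 regulators and the 9 measured haem and iron genes had 0 past the fold.

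In monocyte and macrophage-like cells the NADPH supply list had 7 of 8 measured genes higher in DFMO, where 52.4% of all genes were, a median of 0.17 beside 0.03 for all genes, and 1 higher past the fold, where 9.83% of all genes were, the NAD kinase gene Nadk, at 255.8 against 166 CPM and 0.63 (0.38 to 0.87). In the haem and iron list 6 of 8 measured genes were lower, where 47.6% of all genes were, with a median of -0.26, and the 2 others were Hmox1 and the ferritin gene Fth1, at 0.00. Of 19 measured thioredoxin-system genes 0 were lower past the fold (9.66% of all genes) and 1 higher (9.83%), the superoxide dismutase gene Sod1, at 47.3 against 29.9 CPM. Among CD8 T cell-like cells 4 of 12 regulators were higher past the fold, where 13.7% of all genes were: Nfe2l2, Bach1, Bach2 and Mafk. Leaving out cluster 9, 1 of 11 measured regulators was, Bach2, where 6.73% of all genes were. Ephx1, a microsomal epoxide hydrolase, had 47.0 against 22.5 CPM there and 138 against 30.9 CPM in regulatory T cell-like cells. Mgst2 had 85.3 against 23.7 CPM and Txnip, an inhibitor of thioredoxin, 323 against 176 CPM in the CD8 class. Leaving out cluster 9, the values were 35.1 against 19.9 CPM for Mgst2, 203 against 167 CPM for Txnip, which was then within the fold, and 34.0 against 20.3 CPM for Ephx1. Atf3, a stress-induced factor, had 25.1 against 71.6 CPM in that class, 35.1 against 73.9 CPM leaving out cluster 9, and 33.6 against 75.3 CPM in NK cell-like cells. Cbr1, a carbonyl reductase, had 55.0 against 31.1 CPM in the CD8 class, but 25.2 against 29.99 CPM leaving out cluster 9. In regulatory T cell-like cells the glutaredoxin gene Glrx had 786 against 1283 CPM, a log2 ratio of -0.71 (-0.86 to -0.55), and the thioredoxin gene Txn1 566 against 869 CPM, a log2 ratio of -0.62 (-0.80 to -0.43). The peroxiredoxin gene Prdx5 had 238 against 361 CPM there, and Txnip was higher at 341 against 202.4 CPM. In NK cell-like cells Ugdh, whose enzyme makes UDP-glucuronate, had 49.1 against 29.2 CPM. In monocyte and macrophage-like cells Mgst3, a microsomal transferase, had 44.5 against 72.0 CPM, and Cbr1 had 16.7 against 30.5 CPM.

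Genes with levels most like a member over the 20 clusters of at least 50 cells, by Pearson's r of log2(CPM + 1) with libraries summed, were sought among genes with at least 500 UMIs. For Gclm they were Anapc11 (0.88), Ccdc34, Cmtm4, Thyn1 and Hsp90aa1 (0.85). Srxn1 was most like the metallothionein gene Mt2 (0.92), with Gng5, Akr1e1, Mt1 (0.91) and Serf1 next. G6pdx was most like Cebpb (0.94), the gene of a myeloid transcription factor, with Nadk among the next (0.90), and Hmox1 most like Esd (0.92), with Ccl2 among the next (0.88). Slc7a11 was most like Bri3 (0.94), Gsr like 1110008F13Rik (0.90), Gss like Sdhc (0.92), Gclc like Hivep1 (0.86) and Txnrd1 like Nras (0.83). Nqo1, with 428 UMIs, was below the limit.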

How the data were processed

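The deposited file held raw UMI counts per cell and gene for 10720 cells, unnormalised, and the total of each cell equalled the authors' cell table. Cell Ranger 3.02, Scanpy 1.4.4 and the build mm10 are named, per the submitters' processing notes; the strand setting of the counting is not given in the sources used here. The table's Control cells were taken as the water sample, the control in the series text.

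Cells with at least 200 genes were kept, and Scrublet doublets were removed (51 of 4472 DFMO cells, 1.14%, and 97 of 6248 water cells, 1.55%). Deposited totals were 23588037 and 59748244 UMIs. Cells were scaled to 10000 counts and clustered with scanpy 1.11.5 (2000 variable genes without receptor segments, 30 principal components, 15 neighbours, Leiden resolution 1). A cluster was named when at least 3 markers of a class had 2 times the level of all other cells, unless markers of another class led it, and an unnamed one was called Ptprc-low under 20 CPM of Ptprc. Counts were summed per library and class, and intervals were computed with scipy 1.17.1 and checked on simulated data. Genes sharing sequence were found by 31-mers of GENCODE M21 transcripts.

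The members and lists were chosen with earlier results of these data known. List genes are named when they had at least 100 UMIs in a class, were past the fold and had an interval without 0, and 6 (Nfe2l2, Keap1, Bach1, Bach2, Slc3a2 and Atf4) in any case; Mafk, and Mgst2 in Ptprc-low cells, fall outside this rule and were named after their values were seen. No p-value is given, since there was no replicate error. The comparisons with Ppia, Eno1b and other copies, without cluster 9 or 14, with cluster 7, and without the top 10% of cells were added after seeing the data.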

Additional observations from a re-analysis of the deposited data

Results flagged for a closer look

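Gsr differed in opposite directions in 2 cell classes. In Ptprc-low cells its log2 ratio of DFMO over water was -0.15 (-0.26 to -0.04), and in monocyte and macrophage-like cells it was 0.45 (0.28 to 0.62). Each class had 1 library per group, and the difference between the classes was not tested.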

How the results depend on the processing

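Gclm stayed lower in DFMO under every alternative run, with log2 ratios from -1.23 to -1.02 over all kept cells, -1.35 to -1.24 in Ptprc-low, -1.04 to -0.63 in fibroblast-like, -1.07 to -0.30 for the monocyte and macrophage class, -1.26 to -0.75 in CD8 T cell-like and -1.45 to -0.79 in NK cell-like cells. The values that left their counting interval were -1.02 over all kept cells as a mean over clusters, -1.26 in CD8 T cell-like cells at Leiden resolution 0.5 and, with cells thinned to 1000 UMIs, -1.07 in monocyte and macrophage-like, -0.75 in CD8 T cell-like and -0.79 in NK cell-like cells. The cause was not tested. For the other members, 47 results were run under 400 alternatives, of which 358 moved by less than the counting interval, 40 moved further and 2 reversed. Those were Txnrd1 over all kept cells (0.20) and Hmox1 in monocyte and macrophage-like cells (-0.020), both as a mean over clusters, which gives each cluster equal weight. This Hmox1 result moved by less than its counting interval in only 4 of 10 alternatives and further in 5. Its log2 ratios ran from -0.02 to 0.94. No paired analysis was possible because neither group held more than 1 library. Mouse, pool, library and treatment cannot be told apart.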
